A study of Mus musculus with 33 samples.

Results

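The dermomyotome is the epithelial upper layer of the somite from which skeletal muscle is made, and 9 genes that mark it or drive its cells into muscle were followed through a differentiation of mouse embryonic stem cells. They were found by gene symbol, from a set chosen with earlier results of these data known: the upstream regulators Six4 and Eya1, the dermomyotome regulators Pax3 and Pax7, the migration receptor Met, and the 4 myogenic regulatory factors Myf5, Myf6, Myod1 and Myog. Of these 9, 6 (Six4, Eya1, Pax3, Met, Myod1 and Myog) had a row among the 17120 genes of the count table, and Pax7, Myf5 and Myf6 were not analysed here. The cells carried the ScxGFP transgene, a reporter of the tendon regulator Scleraxis, and were grown as embryoid bodies with the BMP inhibitor LDN-193189 before the Wnt agonist CHIR and LDN-193189 brought them to paraxial mesoderm (PM, sampled at D6). The study's methods also describe that PM medium with AGN 193109 or all-trans retinoic acid added. It reports more ScxGFP-positive cells at D10 after AGN 193109, and loss of nearly all of them after all-trans retinoic acid. The sources used here do not say whether either was present before D6 in these libraries. The steps from PM may therefore also hold the removal of such a compound or its continued presence. Every later culture was a monolayer given TGFβ1, the hedgehog agonist SAG and FGF2. CD1530, which activates retinoic acid receptor γ, was added for the tendon condition, and AGN 193109 (AGN below), which holds all retinoic acid receptors in their repressing state, for the fibrocartilage condition. Bulk RNA-seq covered PM and both conditions at D6.25 (0.25 days of induction), D6.75 (0.75 days), D7.5 (1.5 days), D8.5 (2.5 days) and D10 (4 days), with 3 samples in each of the 11 groups. The study used several ScxGFP lines and calls the 3 samples biological replicates. The sources used here do not say which line each sample came from, so p-values measure the spread between these samples.

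The 33 libraries held between 17116084 and 38120841 counts, with a median of 19899242. The AGN D8.5 replicate 1 library was the only one above 22775275 counts. In PM the paraxial mesoderm genes Tbx6 and Msgn1 had means of 9.56 and 3.38 CPM (counts per 1000000 of the library, after scaling by the trimmed mean of M-values), beside 536 CPM of the progenitor and neural gene Sox2. At D10 the tendon regulator Scx stood at 858 CPM in CD1530 and 1223 CPM in AGN, the cartilage collagen Col2a1 at 145 and 2497 CPM, and the retinoid target Stra8 at 201 and 0.162 CPM. In such bulk samples fewer cells of a type and less RNA per cell cannot be told apart.

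In the embryo, Six4 and its EYA coactivators, together with PAX3 and PAX7, act upstream of the myogenic regulatory factors in muscle progenitors. MYF5, MRF4 (encoded by Myf6) and MYOD1 commit a progenitor to muscle, and myogenin (encoded by Myog) drives the differentiation that follows. MET is the receptor for hepatocyte growth factor, and dermomyotome cells that enter the limb need it to leave the somite.

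Each measured gene had its own course. Six4 fell and recovered before falling again, Eya1 rose and then split by ligand, Pax3 and Met were highest early, and Myog with Myod1 made a short pulse at D6.75. Per kilobase of annotated exon, the highest group mean was 5.74 CPM per kb for Six4, 4.75 for Eya1, 4.17 for Myog, 1.78 for Met, 1.23 for Pax3 and 0.642 for Myod1, against 848 CPM per kb for Scx. Every gene of the table reached 0.611 CPM in at least 3 libraries. Six4, Eya1 and Met did so in 33 libraries and Pax3 in 29. Myog did so in 15 libraries and Myod1 in 10, all from D6.75, D7.5 and D8.5, so a gene with their course could enter the table only through the groups where it is high.

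**Figure D1:**
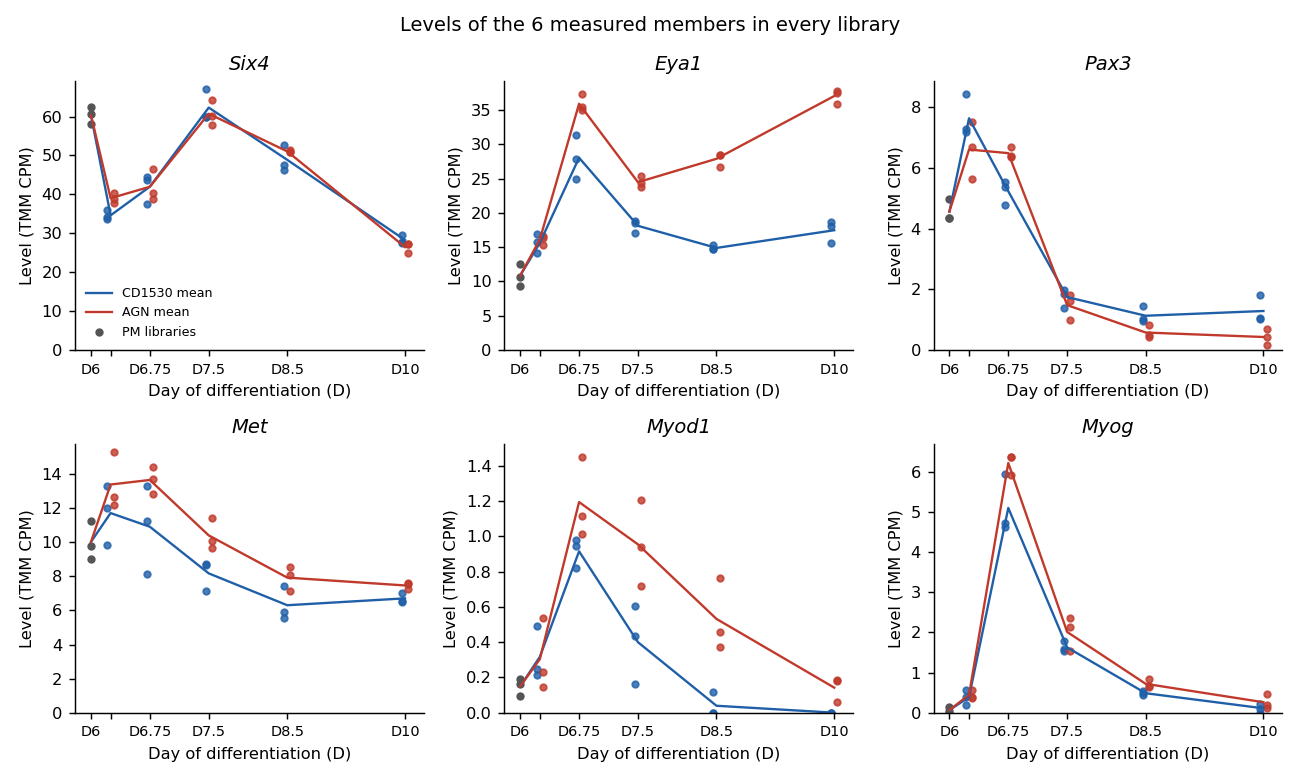
Level of each measured gene (CPM after scaling, linear axis from 0) against the day of differentiation, with 1 point per library and lines through the group means. PM is shared by both lines. Eya1 at D10 lies between 15.6 and 18.7 CPM in the CD1530 libraries and between 35.9 and 37.8 CPM in the AGN libraries, while the Six4 group means there are 28.3 and 26.5 CPM.

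Setting CD1530 against AGN time by time asked when the cultures of the 2 ligands parted in these genes. The test was the quasi-likelihood F test of edgeR, with Benjamini-Hochberg adjusted p-values over all 17120 genes and a call at an adjusted p under 0.05. At D6.25 it called 0 of the 6 genes, against 1.92% of all genes. There 1 of the 6, Six4, had an unadjusted p under 0.05, and DESeq2 also called 0. A fit to the compared groups alone called Six4 (-0.17 ± 0.05, adjusted p = 0.0498) and 804 genes in place of 329. That fit gave no value for Myod1 or Myog. At D6.75 the quasi-likelihood test on all groups called 1 (Eya1), against 18% of all genes. At D7.5 it called 3 (Eya1, Met and Myod1) against 26.9%, at D8.5 3 (Eya1, Pax3 and Myod1) against 40%, and at D10 the same 3 against 46.6%. The median log2 difference of the 6 genes was -0.32 at both D6.75 and D7.5, where the median of all genes was -0.01 and 0.01. A test with 4 degrees of freedom for a ligand difference that varied over the 5 time points called Eya1 (adjusted p = 1.62e-09), Pax3 (0.000382) and Myod1 (0.00347), 3 of 6 against 48.8% of all genes. It gave adjusted p-values of 0.117 for Six4, 0.811 for Met and 0.747 for Myog. The Myod1 calls in these counts describe it only, because it could enter the table only through the groups where it is high.

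**Figure D2:**
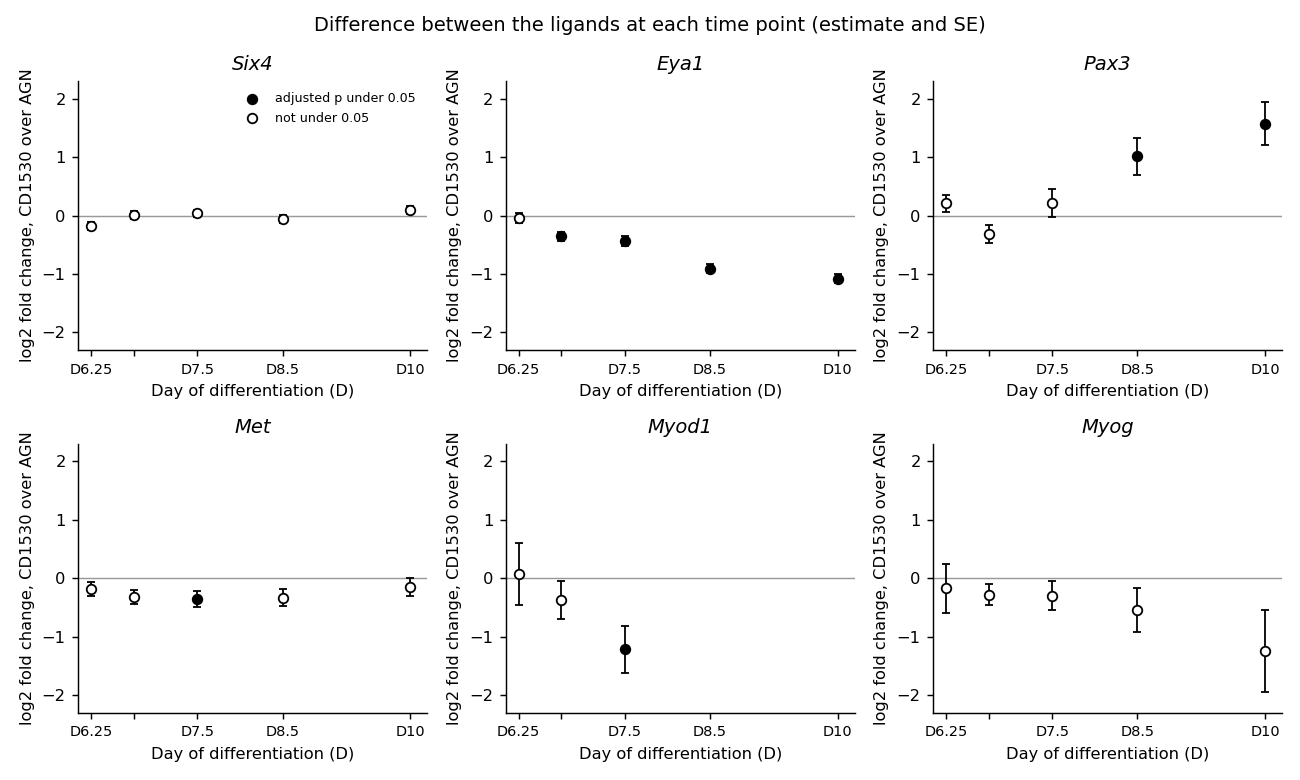
Fitted log2 fold change of CD1530 over AGN (bars are 1 SE, 3 libraries a group) against the day of differentiation. Filled points have an adjusted p under 0.05. Myod1 at D8.5 and D10 is not drawn because a group stood at or under 3 counts in every library. Eya1 goes from -0.05 at D6.25 to -1.08 at D10, and Pax3 reaches 1.57 at D10.

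Each step along the course moved at least 3 of the 6 genes. From PM to D6.25 the test called 4 of 6 in CD1530 and 5 of 6 in AGN, against 67.8% and 68.1% of all genes, and these comparisons share the PM libraries. From D6.25 to D6.75 it called 5 and 3 (45.9% and 43.7%), and from D6.75 to D7.5 6 and 5 (34.2% and 30.3%). From D7.5 to D8.5 it called 5 in each condition (36.5% and 42.1%), and from D8.5 to D10 3 in CD1530 and 4 in AGN (57.3% and 59.4%). Between PM and D10 it called 5 of 6 in each condition, against 83.2% and 82%. These counts include Myog and Myod1, which could enter the table only through the groups where they are high.

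Six4 encodes a homeodomain protein that binds the MEF3 element of muscle genes (ENSMUSG00000034460, GRCm38 chr12:73099609-73113456, minus strand). It was present in every library and fell, recovered and fell again with either ligand. In PM the libraries had 62.4, 58.1 and 60.7 CPM. At D6.25 they had 35.9, 33.7 and 34.3 CPM in CD1530 and 38.8, 40.5 and 37.8 CPM in AGN. All 6 induced libraries were below all 3 PM libraries, a fall of 0.80 ± 0.06 (log2, SE) in CD1530 (adjusted p = 1.84e-14) and of 0.63 ± 0.06 in AGN (adjusted p = 1.58e-11). By D7.5 the level was back at 59.9, 60.0 and 67.0 CPM in CD1530 and 60.1, 64.3 and 57.8 CPM in AGN, ranges that overlapped that of PM. From D6.75 to D7.5 it rose by 0.57 ± 0.06 in CD1530 (adjusted p = 8e-10) and 0.54 ± 0.06 in AGN (adjusted p = 4.87e-09). At D10 the libraries had 29.5, 27.5 and 27.8 CPM in CD1530 and 27.2, 27.3 and 24.9 CPM in AGN, the lowest of the course. The difference between ligands missed the threshold at every time point, and its 95% interval ran from -0.31 to -0.04 at D6.25 and from -0.05 to 0.25 at D10 on the log2 scale. Without CD1530 D6.75 replicate 1, or without AGN D6.75 replicate 3, the test over time points called Six4 (adjusted p = 0.0198 and 0.0473).

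Beside these members, a list of 18 other dermomyotome and progenitor regulators was measured, all of which had a row. At D6.25, against PM, 11 rose and 1 fell in CD1530 and 12 rose and 1 fell in AGN, with a median log2 change of 0.75 and 0.58. Of all genes 34.5% rose in CD1530 and 35% in AGN, and their median change was 0.00 in both. At D10 9 were higher in CD1530, 4 were lower and 5 were not called, with a median of 0.45. Of all genes 22.7% were higher and 24% lower there, with a median of -0.02. Meox1, a homeobox gene of the early somite, went from 5.91 CPM in PM to 131 CPM in CD1530 and 119 CPM in AGN at D8.5, and was higher in CD1530 at all 5 time points, by 0.82 ± 0.06 at D6.25 (adjusted p = 6.17e-13). Sall1 was lower in CD1530 at D6.75, D7.5 and D8.5, when it had 43.7 against 85.7 CPM. Eya3, a paralog of Eya1, had a mean of at least 71.4 CPM in every group and was called between ligands at none of the 5 time points. Prdm1 fell from 49.7 CPM in PM to 10.8 and 10.3 CPM at D10. Lbx1, which marks muscle precursors on their way to the limb and was named after its values were seen, did not pass 1.23 CPM in any group mean. That mean was CD1530 at D10, from between 18 and 26 counts, where AGN had 0.141 CPM from between 1 and 4 counts.

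Eya1 encodes a phosphatase and coactivator that works with Six4 (ENSMUSG00000025932, chr1:14168954-14310235, minus strand). From D6.75 on it had the lowest adjusted p of the 6 genes between ligands. PM had 12.5, 9.40 and 10.7 CPM. At D6.75 the libraries had 25.0, 31.3 and 27.8 CPM in CD1530 and 37.3, 35.4 and 35.0 CPM in AGN. At D8.5 they had 15.2, 14.7 and 14.7 CPM against 28.5, 26.8 and 28.4 CPM, and at D10 18.7, 15.6 and 18.1 CPM against 37.4, 37.8 and 35.9 CPM. From D6.75 on the CD1530 libraries were all below the AGN libraries. The difference was -0.36 ± 0.07 at D6.75 (adjusted p = 0.000276), -0.44 ± 0.08 at D7.5 (3.84e-05), -0.91 ± 0.08 at D8.5 (3.54e-12) and -1.08 ± 0.08 at D10 (6.08e-15), the last a 2.12-fold lower mean. At D6.25 it was -0.05 ± 0.09, with a 95% interval from -0.22 to 0.13.

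With either ligand Eya1 rose at the first 2 steps and fell from D6.75 to D7.5. The largest step was from D6.25 to D6.75, 0.85 ± 0.08 in CD1530 (adjusted p = 9.05e-12) and 1.16 ± 0.08 in AGN (adjusted p = 7.61e-16). After D7.5 the conditions went separate ways. In CD1530 Eya1 fell to D8.5 by 0.28 ± 0.09 (adjusted p = 0.0093). In AGN it went up by 0.19 ± 0.08 to D8.5 (adjusted p = 0.0408) and by 0.41 ± 0.07 to D10 (adjusted p = 8.79e-06). The smaller of these, AGN D8.5 against D7.5, was lost in 4 of the 6 fits that left out a library (AGN D7.5 replicates 1 and 2, AGN D8.5 replicates 1 and 3, adjusted p between 0.0923 and 0.125). So was the 0.23 ± 0.09 of CD1530 D10 against D8.5 (adjusted p = 0.0242 with all libraries and between 0.0609 and 0.136 without CD1530 D8.5 replicate 2 or 3 or CD1530 D10 replicate 1 or 3). Net of the whole course Eya1 was above PM at D10 by 0.69 ± 0.09 in CD1530 (adjusted p = 8.02e-09) and by 1.77 ± 0.08 in AGN (adjusted p = 4.46e-22). All 4 cartilage markers listed, Col2a1, Acan, Matn4 and Sox9, were lower in CD1530 at D8.5 and D10, where 19.6% and 24% of all genes were lower. Their part in the Eya1 difference was not tested.

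Pax3 encodes a paired homeodomain factor that sits above the myogenic regulatory factors and is also used in the dorsal neural tube and the neural crest (ENSMUSG00000004872, chr1:78101267-78197134, minus strand). It was low throughout and lower late than early. PM had 4.98, 4.34 and 4.36 CPM, and D6.25 had 7.17, 8.45 and 7.29 CPM in CD1530 and 7.5, 6.69 and 5.63 CPM in AGN. This was a rise of 0.74 ± 0.15 (adjusted p = 5.67e-05) and 0.53 ± 0.16 (adjusted p = 0.00309). It then fell in CD1530 from D6.25 to D6.75 by 0.55 ± 0.15 (adjusted p = 0.00257), while the AGN step was -0.03 ± 0.15. From D6.75 to D7.5 it fell by 1.59 ± 0.19 in CD1530 (adjusted p = 7.3e-09) and by 2.11 ± 0.19 in AGN (adjusted p = 8.77e-12).

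What was left of Pax3 was higher in CD1530. At D8.5 the libraries had 1.01, 1.44 and 0.943 CPM against 0.487, 0.815 and 0.424 CPM, and at D10 1.01, 1.05 and 1.80 CPM against 0.688, 0.181 and 0.416 CPM, with no overlap at either time. The D10 values rest on 20, 19 and 32 counts against 11, 3 and 7 counts. The difference was 1.02 ± 0.32 at D8.5 (adjusted p = 0.0093) and 1.57 ± 0.36 at D10 (adjusted p = 0.000385). The D8.5 call was lost without CD1530 D8.5 replicate 2 (adjusted p = 0.0926) or AGN D8.5 replicate 1 (adjusted p = 0.0739), and the D10 call held without each of its 6 libraries. Against PM, D10 was lower by 1.84 ± 0.21 in CD1530 and by 3.41 ± 0.28 in AGN on the log2 scale (adjusted p = 3.34e-10 and 1.83e-14).

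Neural genes also differed between ligands at D10. Of 8 neural tube and neural crest markers, 6 had a row, and 5 of them were higher in CD1530 at D10 and 1 lower (22.7% and 24% of all genes), with a median log2 difference of 2.38, or 1.39 with Olig3, at the counting limit in AGN, taken at its lower bound. Their summed level at D10 was between 99.2 and 112 CPM in the CD1530 libraries and between 53.5 and 54.5 CPM in the AGN libraries, most of it Sox2. Sox1, which marks neural progenitors, had 16.0 CPM in CD1530 and 0.367 CPM in AGN at D10 (5.43 ± 0.24, adjusted p = 2.39e-22). Pax6, a neural tube regulator, had 10.4 and 0.362 CPM (4.82 ± 0.24, adjusted p = 9.26e-21), and the dorsal interneuron gene Olig3 had 0.576 and 0.0401 CPM (adjusted p = 7.27e-05). Sox10, a neural crest regulator, had 1.77 and 0.805 CPM. Tfap2b, another crest gene, went the other way, with 1.11 and 3.09 CPM. At D7.5 4 of the 6 were higher in CD1530 and 1 lower, against 15.2% and 11.8% of all genes. Pax3 was not called there (0.21 ± 0.24, adjusted p = 0.578). The part of neural cells in the Pax3 difference was not tested.

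**Figure D3:**
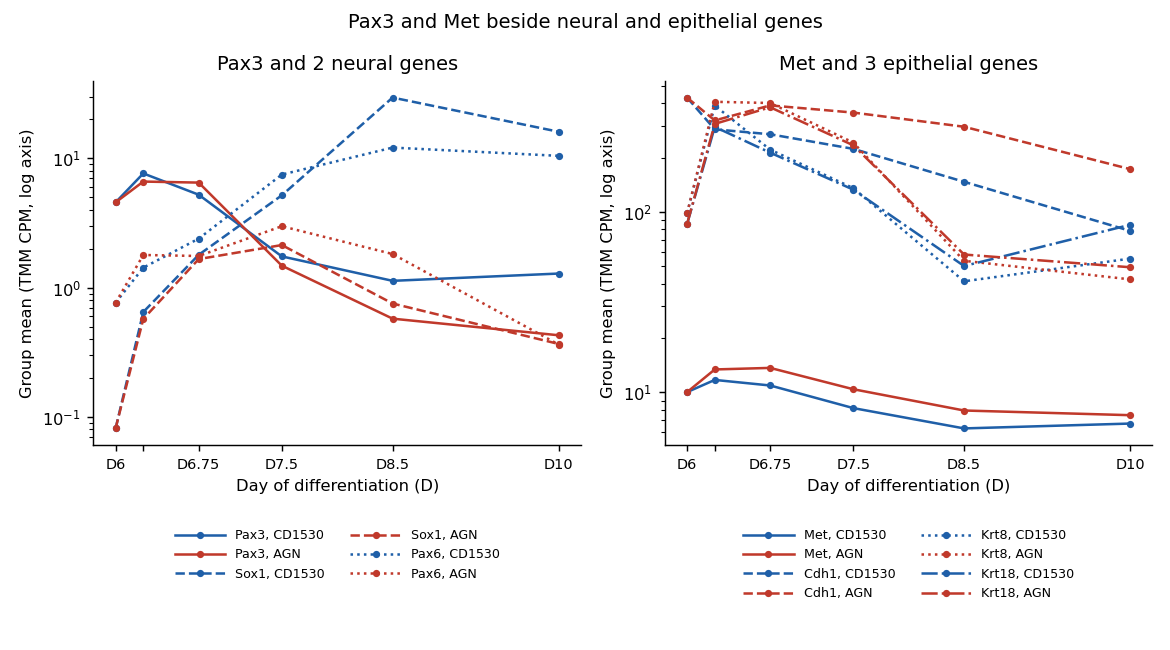
Group mean levels (CPM after scaling, log axis) against the day of differentiation, CD1530 in blue and AGN in red, PM shared. Left, Pax3 with the neural genes Sox1 and Pax6. Right, Met with the epithelial genes Cdh1, Krt8 and Krt18. The Sox1 and Pax6 lines part by ligand from D7.5.

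Met encodes the receptor tyrosine kinase for hepatocyte growth factor, made by migrating muscle precursors and by many epithelia (ENSMUSG00000009376, chr6:17463800-17573980, plus strand). Its group means stayed between 6.31 and 13.7 CPM. PM had 11.2, 9.78 and 9.05 CPM. The highest group was AGN D6.75, with 13.7, 14.4 and 12.8 CPM, where CD1530 had 8.15, 11.3 and 13.3 CPM. At D7.5 the libraries had 8.71, 8.67 and 7.15 CPM in CD1530 and 10.1, 9.67 and 11.5 CPM in AGN, which did not overlap. At D10 they had 6.57, 7.04 and 6.52 CPM against 7.63, 7.53 and 7.25 CPM, again without overlap.

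The group mean of Met was lower in CD1530 at all 5 time points, but the test called only D7.5 (-0.35 ± 0.13, adjusted p = 0.0477). That call was lost in 5 of the 6 fits that left out a library (CD1530 D7.5 replicates 1, 2 and 3 and AGN D7.5 replicates 1 and 3, adjusted p between 0.0542 and 0.234). The differences at D6.75 and D8.5 were of like size, -0.32 ± 0.12 and -0.34 ± 0.15 (adjusted p = 0.0637 and 0.065), and at D10 the 95% interval was -0.47 to 0.16. Over the whole course Met fell from PM to D10 by 0.58 ± 0.14 in CD1530 (adjusted p = 0.000321) and by 0.43 ± 0.14 in AGN (adjusted p = 0.00646). Its 4 called steps between D6.75 and D8.5, each a fall of 0.37 to 0.42, were all lost without one or more of their libraries.

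The other genes of its pathway were measured in 8 of 9 cases, Hgfac being the exception, which was not analysed here. Hgf itself, the ligand, was named after its values were seen. It had group means from 0.829 to 3.26 CPM and was not called between ligands at any time point. The adaptors Gab1 and Grb2 and the protease and its inhibitors that set the amount of active ligand, St14, Spint1 and Spint2, each had a mean of at least 17.2 CPM in every group. At D6.75 4 of the 8 were lower in CD1530 and 0 higher, with a median log2 difference of -0.27, where 10% of all genes were lower and the median was -0.01. They were Cxcl12, Spint1, Spint2 and Cxcr4, the last named after its values were seen. Cxcl12, a chemokine that guides migrating precursors through the receptor Cxcr4, had 102 CPM in CD1530 and 128 CPM in AGN at D6.75 and 142 and 253 CPM at D8.5. Of the 8 genes, 4 were lower in CD1530 and 0 higher at D7.5 (median -0.24). At D8.5 4 were lower and 1 higher (median -0.03), and at D10 2 were lower and 3 higher (median -0.02). Of all genes 11.8%, 19.6% and 24% were lower at these times, and 15.2%, 20.4% and 22.7% higher.

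Epithelial genes also differed between ligands. All 5 listed epithelial markers were lower in CD1530 at D6.75, D7.5 and D8.5, and at D10 3 were lower and 2 (Krt8 and Krt18) higher. Of all genes 10%, 11.8%, 19.6% and 24% were lower at these times, and 22.7% were higher at D10. Their summed level at D7.5 was between 654 and 665 CPM in CD1530 and between 1083 and 1112 CPM in AGN. Cdh1, the epithelial cadherin, had 224 and 356 CPM at D7.5 (-0.67 ± 0.04, adjusted p = 1.73e-17). None of the 5 was near 0 in any group, and the part of epithelial cells in the Met values was not tested.

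Myog encodes myogenin, the factor under which committed myoblasts differentiate (ENSMUSG00000026459, chr1:134289989-134292548, plus strand). It made a pulse with its top at D6.75. PM had 3, 0 and 1 counts, at or under the 3 counts per library taken here as the lowest level that can be told from 0. At D6.25 the libraries had 0.198, 0.578 and 0.383 CPM in CD1530 and 0.366, 0.390 and 0.577 CPM in AGN, at least 2.59-fold and 2.99-fold higher than that limit (adjusted p = 0.00112 and 0.000429). At D6.75 they had 5.94, 4.64 and 4.74 CPM in CD1530 and 6.39, 5.93 and 6.37 CPM in AGN, from between 102 and 145 counts each. At D7.5 they had 1.58, 1.53 and 1.78 CPM against 2.37, 2.14 and 1.53 CPM. At D10 only 2, 0 and 4 counts were left in CD1530 and 3, 2 and 8 counts in AGN.

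The rise from D6.25 to D6.75 was 3.68 ± 0.27 in CD1530 (adjusted p = 1.18e-14) and 3.79 ± 0.27 in AGN (adjusted p = 2.09e-15), 13.2-fold and 14.0-fold between the means. A gene with this course could enter the table only through the groups where it is high. The p-values of the Myog pulse therefore describe it and are not separate support for it. The fall to D7.5 was 1.64 ± 0.21 and 1.63 ± 0.21 (adjusted p = 4.99e-08 and 2.72e-08), and Myog fell again at both later steps with either ligand. From D8.5 to D10 the change was -2.11 ± 0.60 in CD1530 (-3.06 without CD1530 D10 replicate 3) and -1.40 ± 0.45 in AGN (-2.16 without AGN D10 replicate 3). At D10 against D8.5 the AGN fall (adjusted p = 0.0064) was lost without AGN D10 replicate 2 (adjusted p = 0.0575). AGN at D10 was still above PM (adjusted p = 0.0211, at least 1.75-fold), a call lost without PM replicate 2 (0.115) or AGN D10 replicate 3 (0.254). The mean was lower in CD1530 at all 5 time points, but no difference was called. The 95% interval at the peak ran from -0.65 to 0.08 on the log2 scale.

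Myod1 encodes the factor that commits cells to muscle (ENSMUSG00000009471, chr7:46376474-46379099, plus strand). Its top, at D6.75, was lower than that of Myog per kilobase, and after it the AGN means were above the CD1530 means. PM had 4, 2 and 3 counts. At D6.75 the libraries had 0.946, 0.818 and 0.981 CPM in CD1530 and 1.01, 1.12 and 1.45 CPM in AGN, from between 18 and 26 counts. The rise over D6.25 was 1.51 ± 0.41 (adjusted p = 0.00268) and 1.95 ± 0.41 (adjusted p = 0.000153), the latter 2.62 without AGN D6.25 replicate 2. Myod1 too could enter the table only through the groups where it is high, so the p-values of its pulse describe it only. At D7.5 they had 0.163, 0.603 and 0.433 CPM in CD1530 and 0.717, 1.21 and 0.938 CPM in AGN, so that every AGN library was above every CD1530 library. At D8.5 the counts were 0, 0 and 2 in CD1530 and 17, 15 and 7 in AGN. At D10 they were 0, 0 and 0 in CD1530 and 3, 1 and 3 in AGN.

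Between ligands Myod1 was lower in CD1530 by 1.22 ± 0.40 on the log2 scale at D7.5 (adjusted p = 0.0197), a call lost without CD1530 D7.5 replicate 1 (adjusted p = 0.119) or AGN D7.5 replicate 2 (adjusted p = 0.113). Its libraries with at least 0.611 CPM came only from CD1530 D6.75 and AGN D6.75, D7.5 and D8.5. The p-values of its ligand differences therefore describe them and are not separate support. At D8.5 it was at least 3.17-fold lower in CD1530, taken against 3 counts per library (adjusted p = 0.000201). At D10 the test called it (adjusted p = 0.0154), but no library of either group was above 3 counts and no fold is given. In CD1530 it fell from D6.75 to D7.5 by 1.15 ± 0.40 (adjusted p = 0.0226), lost without CD1530 D7.5 replicate 1 or 3 or CD1530 D6.75 replicate 3 (0.13, 0.0536 and 0.0522). It was at least 2.38-fold lower again at D8.5 (adjusted p = 0.00152). In AGN the step from D6.75 to D7.5 was -0.29 ± 0.33, with a 95% interval from -0.96 to 0.38. The AGN fall from D8.5 to D10, at least 2.92-fold (adjusted p = 0.0075), was lost without AGN D10 replicate 2 (adjusted p = 0.0502).

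The promoter of Myog is shown because its factors are among the genes measured: E-boxes, CANNTG, bind the myogenic factors with their partners, and the MEF3 element, TCAGGTT, binds Six4. RefSeq windows of 250 bases before to 50 bases after the gene start (GRCm38.p6) matched 5 of the 9 genes, Six4, Pax7, Met, Myf5 and Myog. Eya1, Pax3, Myod1 and Myf6 had no entry. Both strands were searched for CANNTG and its form CAGCTG (16.3% of windows). The MEF3 element, the MEF2 consensus and the box TATAAA (13.6%) were searched too, as were retinoic acid response elements with 2 and with 5 bases between their repeats. Capitals below mark every match, and E-box and MEF3 matches did not overlap in the stretches shown. The Myog stretch is chr1:134289854-134290003, the 150 bases before its RefSeq start on the plus strand. The Six4 stretch is chr12:73113326-73113352, 27 bases on the minus strand around a TCAGGTT match that reads as AACCTGA here. GENCODE places it in the 5′ untranslated part of a Six4 exon.
Myog: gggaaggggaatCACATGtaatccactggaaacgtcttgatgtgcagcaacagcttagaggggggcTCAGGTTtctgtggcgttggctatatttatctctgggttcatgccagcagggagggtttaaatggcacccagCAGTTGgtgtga
Six4: gcctgggggaAACCTGAtcggccagat
The Myog E-boxes start 138 and 12 bases before the gene start and the MEF3 match 84 bases before it. GENCODE starts Myog at 134289989, so the nearer E-box lies in untranslated exon there. Of 32851 mouse windows of this length 72.3% held CANNTG and 4.07% held TCAGGTT. Six4 had 2 RefSeq windows. Its match starts 97 bases before the gene start of the first (chr12:73113196-73113495), and the second (chr12:73113376-73113675) held no MEF3 match. The Met window held CACGTG and CAGGTG and no MEF3 match. The MEF2 consensus was searched as YTAWWWWTAR (Y is C or T, W is A or T, R is A or G), found in 3.19% of windows. The Myog and Six4 windows held no full match to it, but ctatatttat in the Myog stretch differs from it only at the last base. The Myog and Six4 windows also held no retinoic acid response element of either spacing (0.268% and 0.0974%). A match of letters is a description and not a binding site.

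The partners and inhibitors of the myogenic factors were expressed from the start. All 7 partners listed, the E proteins Tcf3, Tcf4 and Tcf12 and the Mef2 genes, had a row, and 6 rose and 1 fell from PM to D6.25 with either ligand, with a median log2 change of 0.35 in CD1530 and 0.41 in AGN (all genes 0.00). Of all genes 34.5% rose and 33.3% fell in CD1530, and 35% and 33.1% in AGN. The partner that fell was Mef2b, named after its values were seen, which went from 5.15 CPM to 2.42 and 2.21 CPM. Mef2c, which acts with the myogenic factors on muscle genes, went from 1.87 CPM in PM to 8.26 and 7.79 CPM at D6.25 and to 26.0 and 23.9 CPM at D6.75. Tcf3, the most abundant, was between 249 and 320 CPM in all groups.

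All 9 inhibitors listed rose from PM to D6.25 with either ligand, with a median log2 change of 1.18 in CD1530 and 0.94 in AGN. Of all genes 34.5% rose in CD1530 and 35% in AGN, with a median of 0.00 in both. Mdfi, which holds myogenic factors in the cytoplasm, went from 4.91 CPM in PM to 60.7 CPM in CD1530 and 52.6 CPM in AGN (3.63 ± 0.07, adjusted p = 1.62e-34, and 3.42 ± 0.07, adjusted p = 2.25e-33). Twist1, which competes for E proteins, went from 26.2 CPM to 59.6 and 54.9 CPM and reached 243 and 216 CPM at D10. Id3, another trap for E proteins, had 54.4 CPM in CD1530 and 94.4 CPM in AGN at D10. Zeb1 and Id2 also rose early, from 27.0 to 78.7 and 72.5 CPM and from 13.2 to 30.5 and 25.4 CPM. At D7.5 6 of the 9 were higher in CD1530 and 0 lower (median 0.22), where 15.2% of all genes were higher (median 0.01). At D8.5 4 were higher and 3 lower (median 0.09), where 20.4% of all genes were higher and 19.6% lower. At D10 4 were higher and 4 lower, against 22.7% and 24% of all genes. The part of these inhibitors in the Myod1 difference was not tested.

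The products of differentiated muscle gave no common course. Of 31 listed, 22 had a row. At D6.25, against PM, 11 rose and 8 fell in CD1530 and 10 rose and 8 fell in AGN, where 34.5% of all genes rose and 33.3% fell in CD1530 and 35% and 33.1% in AGN. From D6.25 to D6.75, the step of the Myog rise, 9 rose and 3 fell in CD1530 and 8 rose and 5 fell in AGN, with a median log2 change of 0.23 and 0.36. Of all genes 25.8% and 24.9% rose at this step, with a median of 0.02 and 0.01. From D7.5 to D8.5 in AGN 0 rose and 11 fell, where 20.6% of all genes fell. The most abundant, Mylpf, a fast muscle myosin light chain, was highest in PM at 165 CPM and ended at 8.60 and 4.91 CPM. Mymx, which encodes a fusion peptide of myoblasts, went from 24.8 CPM in PM to 4.21 and 1.50 CPM. Des, the muscle intermediate filament, went from 3.00 CPM to 30.9 and 26.4 CPM at D6.25 and had fallen to 6.53 and 7.07 CPM at D6.75. Chrna1, an acetylcholine receptor subunit, was highest at D6.25 with 16.7 and 16.3 CPM. Chrnb1, another subunit, was highest at D10 in CD1530 with 17.1 CPM.

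Between ligands the muscle products were called in both directions. At D6.75 3 were higher in CD1530 (Mylpf, Mymx and Chrna1) and 5 lower (Actc1, Tnnt1, Acta1, Myh3 and Myh7), the last 4 named after their values were seen. Of all genes 7.94% were higher and 10% lower there. At D7.5 4 were higher and 9 lower, with a median log2 difference of -0.35, where 15.2% of all genes were higher and 11.8% lower. At D8.5 7 were higher and 3 lower (median 0.16), where 20.4% of all genes were higher and 19.6% lower. At D10 7 were higher and 6 lower (median -0.06), where 22.7% of all genes were higher and 24% lower. Actc1, the cardiac α-actin that embryonic skeletal muscle also makes, had 7.80 CPM in CD1530 and 14.7 CPM in AGN at D6.75 (-0.91 ± 0.12, adjusted p = 7.58e-08). The slow troponin Tnnt1 had 6.46 and 14.0 CPM (-1.12 ± 0.11, adjusted p = 3.68e-10), and the embryonic myosin Myh3 had 2.54 and 4.80 CPM (-0.91 ± 0.19, adjusted p = 0.000299). Mylpf went the other way, 94.1 and 38.6 CPM (1.29 ± 0.06, adjusted p = 4.63e-20). Their summed level was between 134 and 138 CPM in AGN and between 180 and 184 CPM in CD1530 at D7.5, most of it Mylpf. The cardiac markers were low, and their summed level at D6.75 was between 6.36 and 8.24 CPM in CD1530 and between 8.04 and 9.21 CPM in AGN. Of the 5 cardiac genes with a row, Tnni3 alone was lower in CD1530 at D6.75 and Myl7 alone at D7.5. The part of heart muscle cells in the Actc1 values was not tested.

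**Figure D4:**
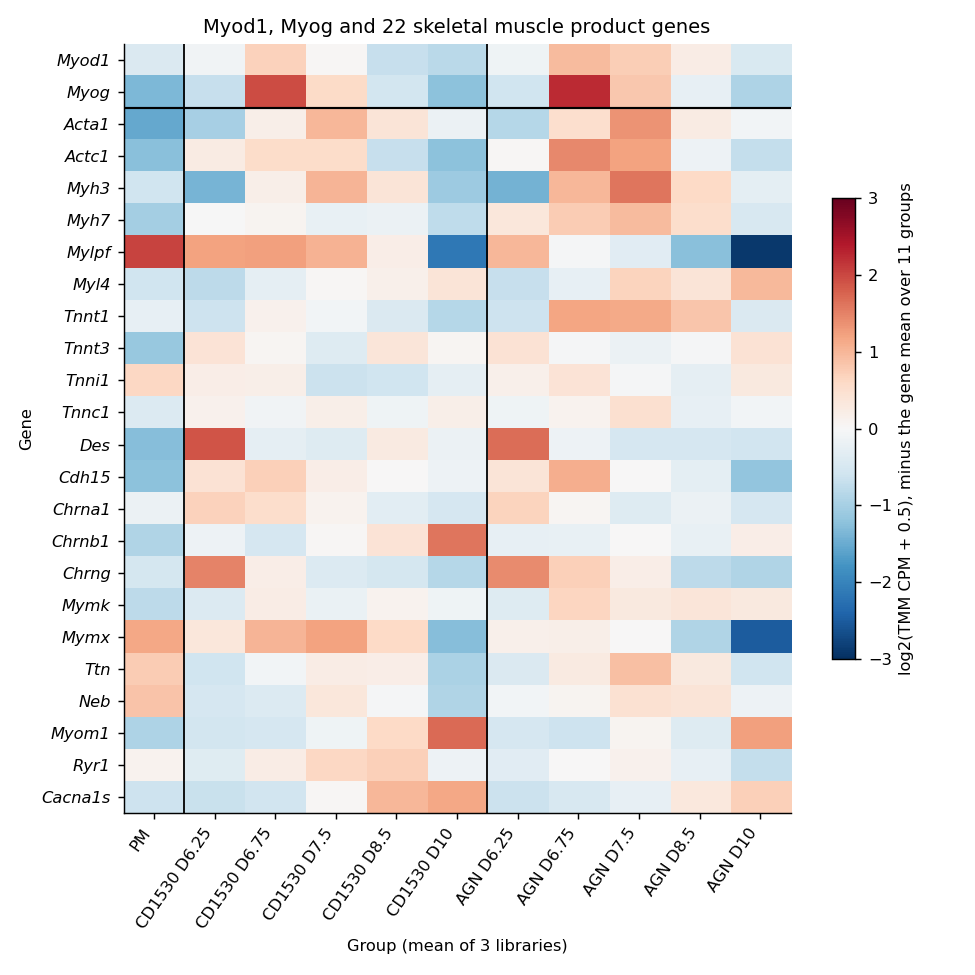
Group means of log2(CPM + 0.5), each gene centred on its mean over the 11 groups, for Myod1 and Myog (above the line) and 22 muscle product genes. Red is above and blue below the gene mean, and vertical lines part PM, CD1530 and AGN. Myog and Myod1 are reddest at D6.75 in either condition, Mylpf is reddest in PM, and Des is reddest at D6.25.

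Over the 11 group means of log2(CPM + 0.5), the 6 genes formed few pairs of like course. Pearson's r was 0.895 for Myod1 and Myog and 0.847 for Pax3 and Met, and for Six4 it lay between -0.297 and 0.351 with the other 5. All 6 courses come from the same 33 libraries, so these values describe the course only. Among 12267 genes with a group mean of at least 5 CPM, the nearest to Myog were Npffr1 (r = 0.954), Slc38a5 (0.947) and Atxn7l1 (0.931), where 95% of genes had an r under 0.542. The nearest to Myod1 were Mea1 (0.933), Tent5c (0.932) and Sptb (0.928). The nearest to Eya1 were Gng2 (0.964), Rftn2 (0.933) and the cartilage gene Ucma (0.932). Those of Pax3 were Galnt12 (0.975), Car12 (0.973) and Ppp1r26 (0.967), and those of Met were Lamb3 (0.980), Kiz (0.967) and Lsr (0.961). Those of Six4 were Rex2 (0.974), Zfp982 (0.971) and Xrcc2 (0.970), where the first pair belongs to a large zinc finger family whose reads may be shared between copies.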

How the data were processed

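RNA-seq of 33 cultures was deposited as 1 table of raw gene counts, made by the authors with STAR (aligned to GRCm38) and featureCounts. The strand setting and annotation are not given in the sources used here. All 17120 gene IDs matched GENCODE M21. Counts were tested with edgeR 4.0.16 (R 4.3.3, limma 3.58.1): scaling by the trimmed mean of M-values, filterByExpr (which removed 0 genes), 1 mean for each of 11 groups and the robust quasi-likelihood F test, with Benjamini-Hochberg adjustment within each of 18 tests. The script was tested on simulated data. Levels are CPM after that scaling. A group with at most 3 counts in each library was taken as at the limit, and folds against it are lower bounds. Counting at these depths limits Myod1, Myog and late Pax3. DESeq2 1.42.0 was an alternative.

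The members and gene lists were chosen with earlier results of these data known. Named are all members, up to 6 genes of each list with the highest group mean, and the 3 genes most like each member. Values of some list genes are not reported here. Alternatives changed the scaling, filter, test, block and libraries. Same-numbered replicates did not deviate together (median r = 0.00135 over 165 pairs, 3 over 0.1). Figures used Python 3.11.15 and matplotlib 3.10.9.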

Additional observations from a re-analysis of the deposited data

Results flagged for a closer look

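The difference between CD1530 and AGN changed over the 5 time points for 3 genes by the quasi-likelihood test of edgeR. For Eya1 (adjusted p = 1.62e-09) it went from -0.05 on the log2 scale at D6.25 to -1.08 at D10. For Pax3 (adjusted p = 0.000382) it was -0.31 at D6.75, which was not called, and 1.57 at D10. For Myod1 (adjusted p = 0.00347) it was 0.07 at D6.25 and -1.22 at D7.5, and at D8.5 CD1530 had 0, 0 and 2 counts. Myod1 could enter the table only through the groups where it is high, so its p-value is a description only. Such a change was called for 48.8% of all genes. With 3 samples a group, single libraries were not screened for outliers.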

How the results depend on the processing

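Of 65 called changes of single members, 52 kept their direction and their call under every alternative that gave a value. Of 836 refits 40 lost the call and 0 reversed. For some calls of Myod1 and Myog 1 of the 13 alternatives gave no value, so they were refitted only 12 times. They include Myod1 between ligands at D8.5 and D10 and Myog from PM to D6.25 with either ligand. The calls lost were of Met (5 of 8), Myod1 (3 of 9), Eya1 (2 of 16), Myog (2 of 11) and Pax3 (1 of 10), and of Six4 0 of 11. Fitting the compared groups only called 1 member at D6.25 between ligands in place of 0. Over all genes that fit called 804 in place of 329 at D6.25, 1236 in place of 3076 at D6.75, 5185 in place of 7853 for CD1530 D6.75 against D6.25 and 2792 in place of 5854 for CD1530 D7.5 against D6.75, and the cause was not tested. Leaving out each library in turn called between 196 and 276 genes at D6.25, between 1 and 2 members at D6.75 and D7.5, and between 2 and 4 members for AGN D10 against D8.5. Replicate numbers do not pair the samples, and 12 of 33 libraries lay closest to their own number. A replicate block left all 18 member counts within 1.5 times and lost 1 call, Eya1 in AGN from D7.5 to D8.5 (0.19, adjusted p = 0.0538). DESeq2 (adjusted p = 0.0525) and scaling by library size only (0.10, adjusted p = 0.286) lost it too. Library size scaling moved the median of all genes by up to -0.15 in log2 and by more than 0.1 in 3 of the comparisons, and lost Eya1 in CD1530 from D8.5 to D10 (0.14, adjusted p = 0.178). By that scaling r of Myod1 and Mea1 was 0.885. Counting error limits Myod1, Myog and late Pax3.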
